A study of Mus musculus with 8 samples.

Results

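Goblet cells of the mouse colon were taken as the droplet barcodes that carried RNA of mucus genes, 211 of 8588 barcodes in 8 libraries. A barcode stands for the RNA caught in 1 droplet, counted as unique molecular identifiers (UMIs). Barcodes were kept at 100 UMIs or more, a haemoglobin share under 25% and a mitochondrially encoded share under 50%, which left 1403. A kept barcode was a member when Muc2, Fcgbp, Clca1, Zg16, Tff3, Agr2, Spink4, Bcas1 and Fer1l6 together gave at least 5 UMIs and at least 1.5% of its UMIs.

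The libraries came from colons of C57BL/6 mice, 1 per mouse, that had eaten 1 of 2 diets for 3 weeks. The first diet held corn oil and cellulose (4 mice, here CC1 to CC4). The other held fish oil and pectin (4 mice, FP1 to FP4). The labels name colonocytes as the cells and colon as the tissue, and each library was made from 2 sections of 50 µm of rolled, fixed and paraffin-embedded colon with a probe-based assay for fixed RNA. Neither age nor sex stands in the labels, no group carried an engineered allele, and fat and fibre source were changed together, so that their effects cannot be told apart. The comparison asks how the RNA of colon cells differs between the diets.

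Goblet cells are secretory cells of the gut lining that fill granules with the gel-forming mucin MUC2 and release it to build the mucus layer between bacteria and epithelium. The transcription factor ATOH1 sets the secretory fate and SPDEF drives the later maturation of goblet cells. Because large mucin polymers are folded, disulfide-linked and glycosylated on their way out, goblet cells depend on a busy endoplasmic reticulum and on a granule export machinery.

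Goblet barcodes were spread unevenly over mice. CC1 to CC4 gave 7, 16, 19 and 71 of them, and FP1 to FP4 gave 2, 33, 14 and 49. Their summed depth was 1484, 2809, 25605 and 54790 UMIs in CC1 to CC4 and 850, 10963, 2905 and 36700 in FP1 to FP4. CC4 and FP4 thus held most of the UMIs of their diets, and FP1, with its 2 barcodes, was left out of every test of genes. A whole library held 34758 to 245476 UMIs in 106 to 5180 barcodes. Libraries were divided into 2 pools of equal size, each with different sample barcodes, by the split with the most droplet barcodes shared within pools. That split had 189 within pools and 24 between them, the first being the value it was chosen to maximise. The next best split had 137 within. CC1, CC2, CC3 and FP1 formed pool 1, and CC4, FP2, FP3 and FP4 formed pool 2, so that pool and diet overlapped in part. Of the 211 members, 22 used a droplet barcode seen in another library, and none was a member in both.

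The 9 mucus genes code for the gel and for its makers. Muc2 (chr7:141690340-141754693, plus strand, GRCm38) encodes the mucin itself, and Fcgbp, Clca1 and Zg16 encode proteins that are secreted with it. Tff3 encodes a trefoil peptide of mucosal repair. Agr2 encodes a disulfide isomerase of the endoplasmic reticulum needed for MUC2 production. Spink4 encodes a secreted Kazal-type protein, and Fer1l6 a ferlin-family membrane protein. RefSeq promoter sequences (GRCm38.p6, 250 bases before to 50 after the gene start) were at hand for 7 of 18 genes looked for. These were 3 of the 9 rule genes, and Mlph, Nupr1, Spdef and Atoh1. Shown are the 3 rule genes, which helped to choose the members, and Mlph, which did not. Mlph is a granule-transport gene higher in goblet barcodes than in other epithelial ones. The windows are chr7:141690090-141690389 for Muc2, chr7:28070986-28071285 for Fcgbp, chr12:35992675-35992974 for Agr2 and chr1:90914850-90915149 for Mlph, each on the plus strand. Capitals mark matches, on either strand and by sequence alone, to an E-box (CAGCTG), a forkhead-type motif (TGTTTAC), a CDX-type motif (TTTATNG) or TATAAA.
Muc2: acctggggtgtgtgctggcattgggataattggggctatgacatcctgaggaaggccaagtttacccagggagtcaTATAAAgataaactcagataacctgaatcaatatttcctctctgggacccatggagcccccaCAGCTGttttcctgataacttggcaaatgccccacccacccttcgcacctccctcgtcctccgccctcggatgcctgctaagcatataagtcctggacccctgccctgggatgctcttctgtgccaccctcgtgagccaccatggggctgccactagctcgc
Fcgbp: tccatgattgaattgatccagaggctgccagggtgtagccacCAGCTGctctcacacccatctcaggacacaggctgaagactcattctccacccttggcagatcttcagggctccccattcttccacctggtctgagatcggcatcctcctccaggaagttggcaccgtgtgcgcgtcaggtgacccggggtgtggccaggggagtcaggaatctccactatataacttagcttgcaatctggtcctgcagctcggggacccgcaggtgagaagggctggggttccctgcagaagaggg
Agr2: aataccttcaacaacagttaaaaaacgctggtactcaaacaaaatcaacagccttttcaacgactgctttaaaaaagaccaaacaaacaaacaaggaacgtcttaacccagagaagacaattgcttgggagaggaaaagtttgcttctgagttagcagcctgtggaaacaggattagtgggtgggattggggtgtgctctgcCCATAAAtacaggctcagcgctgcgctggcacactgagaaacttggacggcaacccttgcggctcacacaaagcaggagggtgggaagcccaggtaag
Mlph: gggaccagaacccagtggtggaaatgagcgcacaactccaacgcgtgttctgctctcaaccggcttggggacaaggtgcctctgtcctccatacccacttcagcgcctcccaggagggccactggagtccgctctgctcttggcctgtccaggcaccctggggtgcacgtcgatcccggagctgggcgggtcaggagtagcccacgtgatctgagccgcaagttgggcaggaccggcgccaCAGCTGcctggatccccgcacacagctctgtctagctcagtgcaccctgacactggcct

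The E-box was matched once each in the Muc2, Fcgbp and Mlph windows and not in the Agr2 window. Among all 32851 promoter windows of this length, 16.3% held it, so a match is common. The Muc2 window also held 1 core promoter box, present in 13.6% of windows, and the Agr2 window held 1 CDX-type match on the minus strand, present in 10.9%. The forkhead-type motif, in 3.65% of windows, was matched in none of the 4. No 2 matches overlapped. Of the windows not shown, that of Nupr1 held 1 E-box, and those of Spdef and Atoh1 held no match to any of the 4 motifs.

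Muc2 gave the most UMIs among the 9 genes, 3394 of 7798 in members (43.5%), and 198 of the 211 members carried at least 1. UMI counts of different genes depend on their probes and are not compared as levels between genes. Muc2 stood at 142, 189, 86.3 and 364 UMIs per 10000 member UMIs in CC1 to CC4 and at 129, 77.5, 234 and 256 in FP1 to FP4. The 2 diets overlapped across nearly the whole range, with means of 195 ± 120 and 174 ± 84.9 (SD, n = 4 each). Fcgbp stood at 40.4, 60.5, 52.3 and 144 in CC1 to CC4 and at 35.3, 63.9, 131 and 105 in FP1 to FP4. Both genes were highest in CC4 among corn oil/cellulose mice, and the diets overlapped for Fcgbp too. These 9 genes were left out of the test between barcode classes, since they chose the members.

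The remaining mucus genes differed in how they varied between mice. Zg16, a lectin-like protein that binds bacteria, stood at 80.9, 35.6, 28.1 and 56.0 UMIs per 10000 in CC1 to CC4 and at 70.6, 71.1, 127 and 95.4 in FP1 to FP4. The Zg16 ranges overlapped only because CC1, with 12 Zg16 UMIs, lay above FP1 and FP2. Tff3 averaged 66.6 ± 31.7 with corn oil/cellulose and 97.7 ± 35.7 with fish oil/pectin. Clca1 means were 29.8 ± 14.9 and 29.3 ± 22.1, and Agr2 means 20.7 ± 12.1 and 18.1 ± 10.1, so these 2 were close between the diets against wide spreads. Bcas1 and Fer1l6 were highest in CC2, at 39.2 and 71.2, and at 0 in FP1. Spink4 was the scarcest, with 32 UMIs in 25 members.

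**Figure D1:**
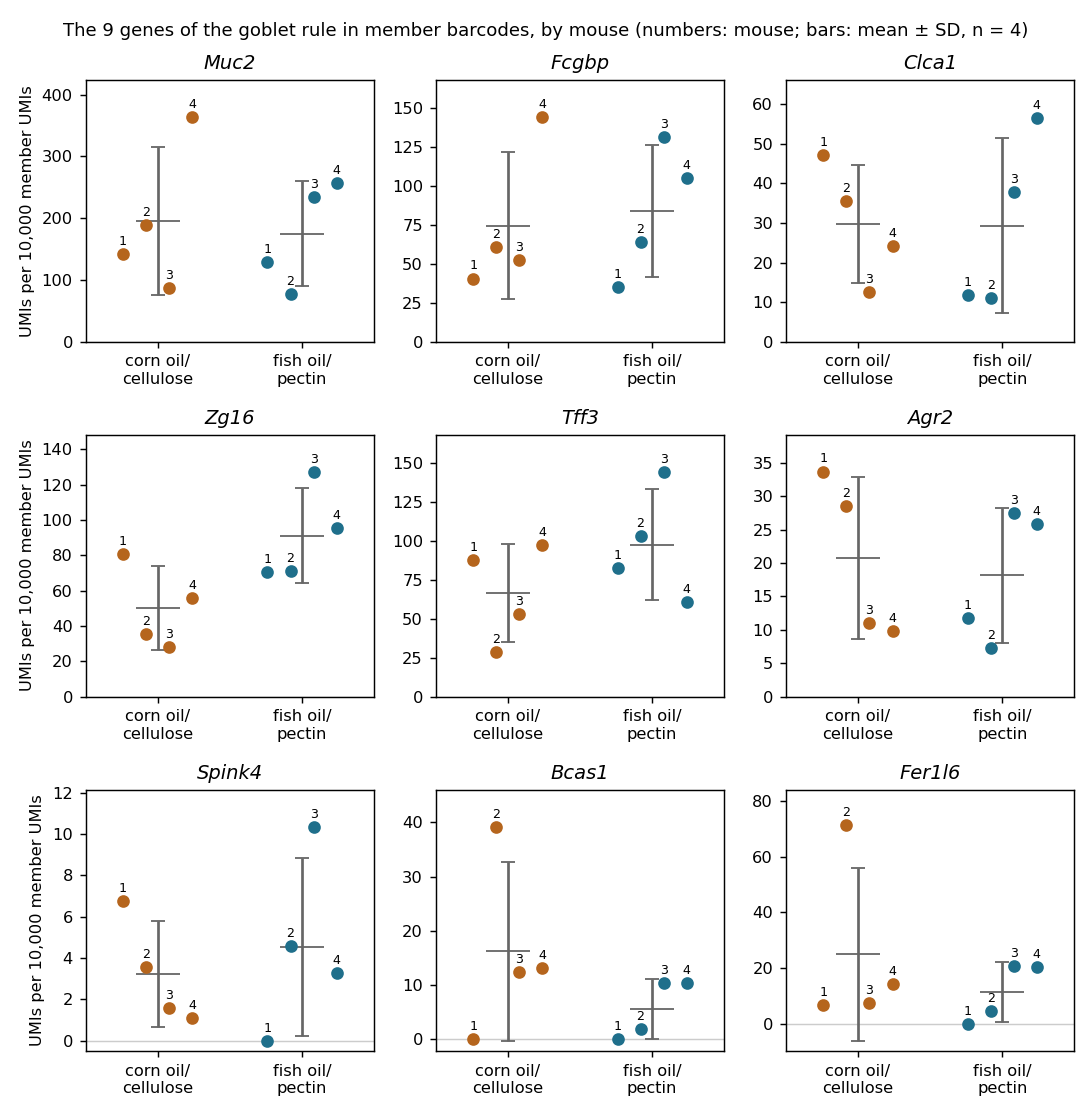
Levels of the 9 genes that chose the members, in UMIs per 10000 member UMIs (vertical axis, linear), with 1 numbered point per mouse for each diet and the mean ± SD of 4 mice. In the Zg16 panel all 4 fish oil/pectin mice lie above 3 of the 4 corn oil/cellulose mice, while Fer1l6 shows 1 mouse, CC2, far above the others at 71.2.

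The mucus genes travelled together also when the gene looked at was taken out of the rule. Barcodes chosen on the other 8 genes alone numbered 156 for Muc2, and 91.7% of these carried Muc2, at 302 UMIs per 10000 against 22.02 in the other epithelial barcodes of that choice. For Fcgbp the values were 111 against 8.12, for Tff3 80.2 against 7.04 and for Zg16 65.0 against 4.19. Clca1 gave 30.3 against 1.69 and Fer1l6 14.8 against 0.858. Spink4 had the smallest contrast, 2.28 against 0.516. Each gene thus stood higher in barcodes that it had not helped to choose, a description without a test.

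Most members carried several of the 9 genes. At least 4 of them were found in 174 of the 211 members (82.5%), and 2 members had just 1. The median member had 20 mucus UMIs, or 4.82% of its UMIs, and the highest had 21.9%. At the edge of the rule, the lowest member share was 1.59% and the highest share just outside, with 5 mucus UMIs or more, was 1.45%. In all, 16 members had exactly 5 mucus UMIs and 30 kept barcodes with a sufficient share had 4.

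Mucus UMIs also lay outside the members, 4252 of 12050 in all barcodes. In other epithelial barcodes, kept barcodes that were no members and had at least 5 UMIs and 1.5% from 34 epithelial genes such as Epcam, Krt8, Car1 and Slc26a3, the 9 genes made up 0.272% of UMIs, against 5.73% in members, a contrast that the rule itself fixes. A Muc2 UMI was found in 22.1% of the 589 other epithelial barcodes, in 12.8% of the 603 other kept barcodes and in 6.17% of 989 haemoglobin-led barcodes, a class that should lack it. Median depths were 446 UMIs in members and 365, 161 and 290 in these 3 classes. Muc2 gave 43.5% of the mucus UMIs in members and 29.2%, 28.0% and 30.1% in the 3 classes outside, while Tff3 gave 13.8% in members and 20.4%, 21.3% and 22.6% outside. These are sums over mice, and CC4 and FP4 gave most of the member UMIs. By mouse, the Muc2 share in members ran from 22.5% in FP2 to 50.3% in CC4, with CC1, CC3 and FP3 at 31.8%, 32.6% and 31.5%, and the Tff3 share from 5.80% in CC2 to 29.9% in FP2, so that the pooled contrast in mix was not one seen in every mouse.

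How much of a library's mucus RNA lay in members varied widely. The share was 90.3% in CC4 and 92.1% in FP4, 77.9% in CC3, between 27.3% and 45.8% in CC2 and the other 3 fish oil/pectin mice, and 3.51% in CC1. In CC1, 89.9% of 1882 mucus UMIs sat in barcodes under 100 UMIs. Goblet values of CC1 therefore describe a small part of the mucus RNA of that library.

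Genes outside the rule set the goblet barcodes apart from other epithelial barcodes of the same mice, led by Ern2, Spink1, Hsd11b2 and Nupr1. Ern2 encodes IRE1β, the endoplasmic reticulum stress sensor of mucus-secreting epithelium, Spink1 a secreted trypsin inhibitor, Hsd11b2 the enzyme that inactivates glucocorticoids, and Nupr1 a stress-induced nuclear protein. With the 9 rule genes and the 34 comparator genes left out of the counts, and the mouse as a block, edgeR's quasi-likelihood test called 22 of 553 genes over 7 mice (3.98%) at an adjusted p under 0.05. Of these, 11 were higher in goblet barcodes (1.99%) and 11 lower (1.99%), and the median over all tested genes was -0.14 on the log2 scale.

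Ern2 stood at 6.74, 10.7, 3.12 and 11.1 UMIs per 10000 in goblet barcodes of CC1 to CC4 and at 2.74, 3.44 and 16.1 in FP2 to FP4. In the other epithelial barcodes it stood at 3.20, 1.51, 1.21 and 1.05 and at 0.561, 0 and 2.44. It was higher in goblet barcodes in each of these 7 mice, by 2.77 ± 0.39 (log2 ± SE, adjusted p = 3.48e-10, edgeR). Some of these directions rest on very few Ern2 UMIs. Goblet barcodes gave 1 against 1 in other epithelial barcodes in CC1, 3 against 1 in FP2 and 1 against 0 in FP3. At least 1 Ern2 UMI was seen in 74 of 211 members (35.1%), in 5.09% of other epithelial and in 0.303% of haemoglobin-led barcodes. Spink1 stood at 6.74, 17.8, 16.8 and 38.0 in goblet barcodes of CC1 to CC4 and at 2.74, 13.8 and 12.8 in FP2 to FP4. In other epithelial barcodes Spink1 stayed between 0 and 6.4, and only FP2 was lower in goblet than in other epithelial barcodes. The CC1 values rest on 1 goblet UMI against 2. The Spink1 log2 difference was 2.79 ± 0.39 (adjusted p = 3.48e-10, edgeR).

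Hsd11b2 was higher by 2.26 ± 0.36 and Nupr1 by 2.08 ± 0.36 on the log2 scale (edgeR, adjusted p = 1.01e-07 and 1.74e-06). Nupr1 was higher in goblet barcodes of all 8 mice and Hsd11b2 in 7, with FP1 the exception. Goblet UMIs were as few as 1 for Nupr1 in CC2 and FP1 and for Hsd11b2 in CC1. Smim14 and Smim6, 2 small membrane proteins, were higher by 2.03 and 1.96, Clec2h, a C-type lectin-like protein, by 1.76, and Camk2n1, an inhibitor of calcium/calmodulin-dependent kinase II, by 1.67. Mlph, which encodes melanophilin, a RAB27 effector that moves granules, was higher by 1.53 ± 0.35 (adjusted p = 6.72e-04, edgeR) and in 6 of the 7 mice with Mlph UMIs. Atp2a3, a calcium pump of the endoplasmic reticulum, was higher by 1.23 and in 8 of 8 mice. Tagln2, an actin-binding protein, closed the list at 1.18. Without FP4, the second deepest goblet library, 3 genes were called, and without CC4, the deepest, 6, all of them higher in goblet barcodes. Ern2 and Nupr1 were not among the genes tested without FP4. The count was 11 without CC2 and 34 without FP2.

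**Figure D2:**
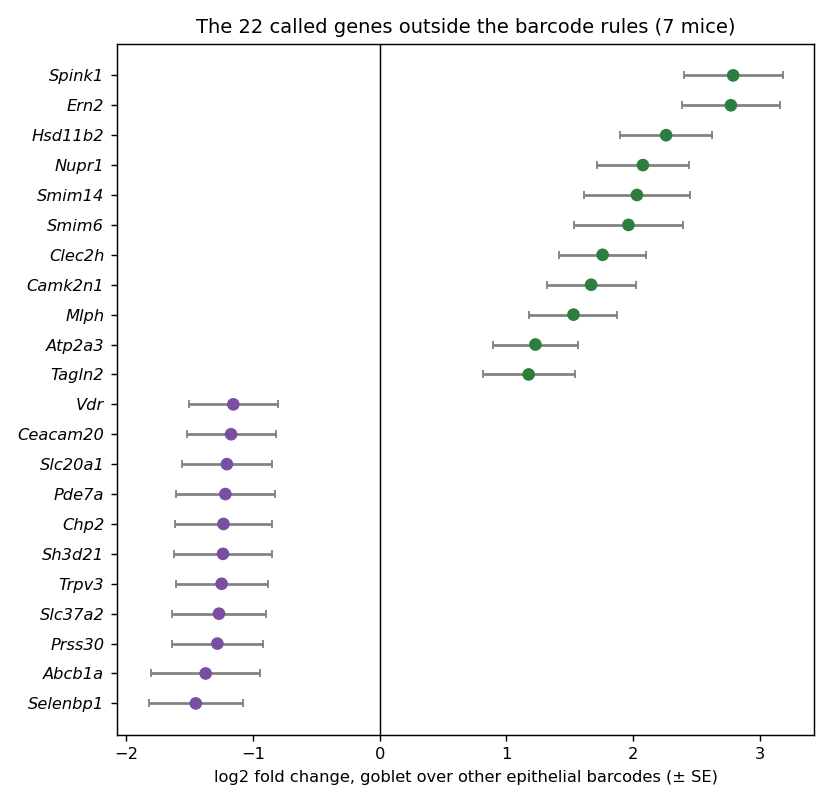
Log2 fold change of goblet over other epithelial barcodes (horizontal axis, with SE) for the 22 genes called by edgeR over 7 mice. The 11 higher genes run from Tagln2 at 1.18 to Spink1 at 2.79 and the 11 lower ones from Vdr at -1.16 to Selenbp1 at -1.45.

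The 11 lower genes included transporters and surface proteins, and 3 of the 4 listed absorptive colonocyte markers that were tested were among them. The remaining one, Saa1, the most abundant of the list in members, was not called (-0.28, adjusted p = 0.767, edgeR). Slc37a2 and Slc20a1, a sugar-phosphate and a phosphate transporter, were lower in goblet barcodes by -1.27 and -1.21 on the log2 scale. Trpv3, a calcium-permeable channel, was lower by -1.25, Abcb1a, a drug efflux pump, by -1.37, Ceacam20, a brush border adhesion molecule, by -1.17, and Vdr, the vitamin D receptor, by -1.16. Selenbp1, Prss30, Sh3d21, Chp2 and Pde7a made up the rest, between -1.45 and -1.22. Vdr ran from 0 to 6.74 UMIs per 10000 in goblet barcodes and from 3.20 to 12.6 in other epithelial barcodes, lower in 7 of 8 mice with CC1 the exception. Since the comparator had been chosen partly on genes of absorptive cells, what that choice contributes to the lower genes was not tested. None of the 11 lower genes was called without CC4 or without FP4, but not all were tested there. Abcb1a and Pde7a were tested in neither setting, and Sh3d21 and Chp2 were not tested without FP4. DESeq2 gave 1 lower call.

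Many goblet genes were left untested in this comparison by the count filter. A fit without it, over 12427 genes, called 33 higher (0.266%) and 2 lower (0.0161%). Calls of that fit rest mainly on CC4 and FP4 and were not refitted with single mice left out. Transcription factors of the lineage were among the higher genes. Spdef (chr17:27714352-27728955, minus strand) gave 0, 1, 1 and 31 UMIs in goblet barcodes of CC1 to CC4 and 0, 3, 2 and 17 in FP1 to FP4, against 9 in all other epithelial barcodes, which held 290670 UMIs against 136106 in members. Its log2 difference without the filter was 3.36 ± 0.63 (adjusted p = 1.38e-04, edgeR). Atoh1 gave 29 UMIs in members and 4 in other epithelial barcodes, a log2 difference of 3.22 ± 0.78 (adjusted p = 0.0201, edgeR), and was seen in goblet barcodes of 5 mice. Creb3l1, a stress-linked transcription factor, gave 48 against 25 UMIs and missed the threshold (2.01 ± 0.53, adjusted p = 0.0575, edgeR), as did Xbp1, the target of IRE1 splicing, in the filtered fit (0.97, adjusted p = 0.0963, edgeR). Klf4 and Mxd1, also in that list, stood at 15.9 and 30.3 UMIs per 10000 in goblet and at 14.2 and 29.3 in other epithelial barcodes.

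Granule export genes were called as well. Sytl2, a synaptotagmin-like RAB27 effector, gave 85 UMIs in goblet barcodes (0, 4, 6 and 46 in CC1 to CC4, and 0, 1, 0 and 28 in FP1 to FP4) and 6 in other epithelial ones. Its log2 difference without the filter was 4.61 ± 0.64 (adjusted p = 1.01e-08, edgeR), and goblet barcodes were higher in all 5 mice with Sytl2 UMIs. Rab27a and Rab27b, the granule GTPases, were called too, at 33 against 2 and 39 against 9 UMIs, and so was Scin, an actin-severing protein, at 95 against 41. In the list of 38 traffic and granule genes, 4 of 37 tested without the filter were called higher and none lower. Over all 12427 genes of that fit, 33 were called higher (0.266%) and 2 lower (0.0161%).

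Ion, folding and glycosylation genes followed in smaller numbers. Best2, a bicarbonate-permeable chloride channel of goblet cells, gave 60 goblet UMIs against 9 (3.49 ± 0.64, adjusted p = 5.67e-05, edgeR), and Atp2c2, a Golgi calcium and manganese pump, 149 against 59 (2.21 ± 0.48, adjusted p = 0.00339, edgeR). Lrrc26, a subunit of a large-conductance potassium channel, gave 24 against 4. Of the 46 listed endoplasmic reticulum genes, Ern2 and Txndc5, a disulfide isomerase, were called without the filter out of 42 tested. Hspa5, the reticulum's main chaperone, had 14 goblet UMIs and was not called. Of 44 mucin glycosylation genes, Galnt10 was called out of 41 tested. Beside these list counts, 33 of all 12427 genes of that fit were called higher (0.266%). Gal3st2, a sulfotransferase outside that list and picked after its values were seen, gave 15 UMIs in goblet barcodes of 4 mice and 0 in other epithelial barcodes.

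Capn9 (51 goblet UMIs against 3), Rap1gap (123 against 19), Hepacam2 (97 against 19), Mcf2l, Cracr2a, Bace2 and Tpsg1 belonged with Sytl2 to a list of 33 other goblet-associated genes. In it, 9 of 30 tested without the filter were called higher, Nupr1 being the ninth, beside 33 of 12427 genes (0.266%) in all. With the filter 4 of the list were tested and 3 called, with a median of 2.00 on the log2 scale beside -0.14 over all tested genes. Among its genes with at least 20 UMIs in the 2 classes together, 17 of 19 stood higher in goblet barcodes, against 1887 of 4752 such genes in all. Genes such as Capn9 reach that cut through their goblet UMIs. The list was also written with earlier results of these data known, so these counts only describe it. Ffar4, a receptor for long-chain unsaturated fatty acids, gave 27 goblet UMIs and 1 other epithelial UMI, of which CC4 and FP4 held 26; it was picked after its values were seen. Sval1, a seminal vesicle antigen-like gene of the mucus list, gave 115 goblet UMIs against 11 and was called. Retnlb gave 1 UMI in members, and Tff1 and St6galnac1 gave 0.

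The 2 genes called lower without the filter were Slc40a1 and Gsdmc2. Slc40a1 (chr1:45908068-45926523, minus strand) encodes ferroportin, the iron exporter of the basolateral membrane. It gave 0, 0, 4 and 9 UMIs in goblet barcodes of CC1 to CC4 and 0, 1, 0 and 0 in FP1 to FP4, against 1, 13, 9 and 39 and 1, 4, 1 and 40 in other epithelial barcodes. It was lower in goblet barcodes of 8 of 8 mice, by -2.12 ± 0.55 on the log2 scale (adjusted p = 0.0380, edgeR). Gsdmc2, a gasdermin, gave 1 UMI against 48. In the iron handling list, 1 of 15 tested genes was called lower and none higher, beside 2 lower (0.0161%) and 33 higher (0.266%) of 12427 in all. Fth1, the ferritin heavy chain, differed by -0.46 in the filtered fit (adjusted p = 0.572, edgeR).

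**Figure D3:**
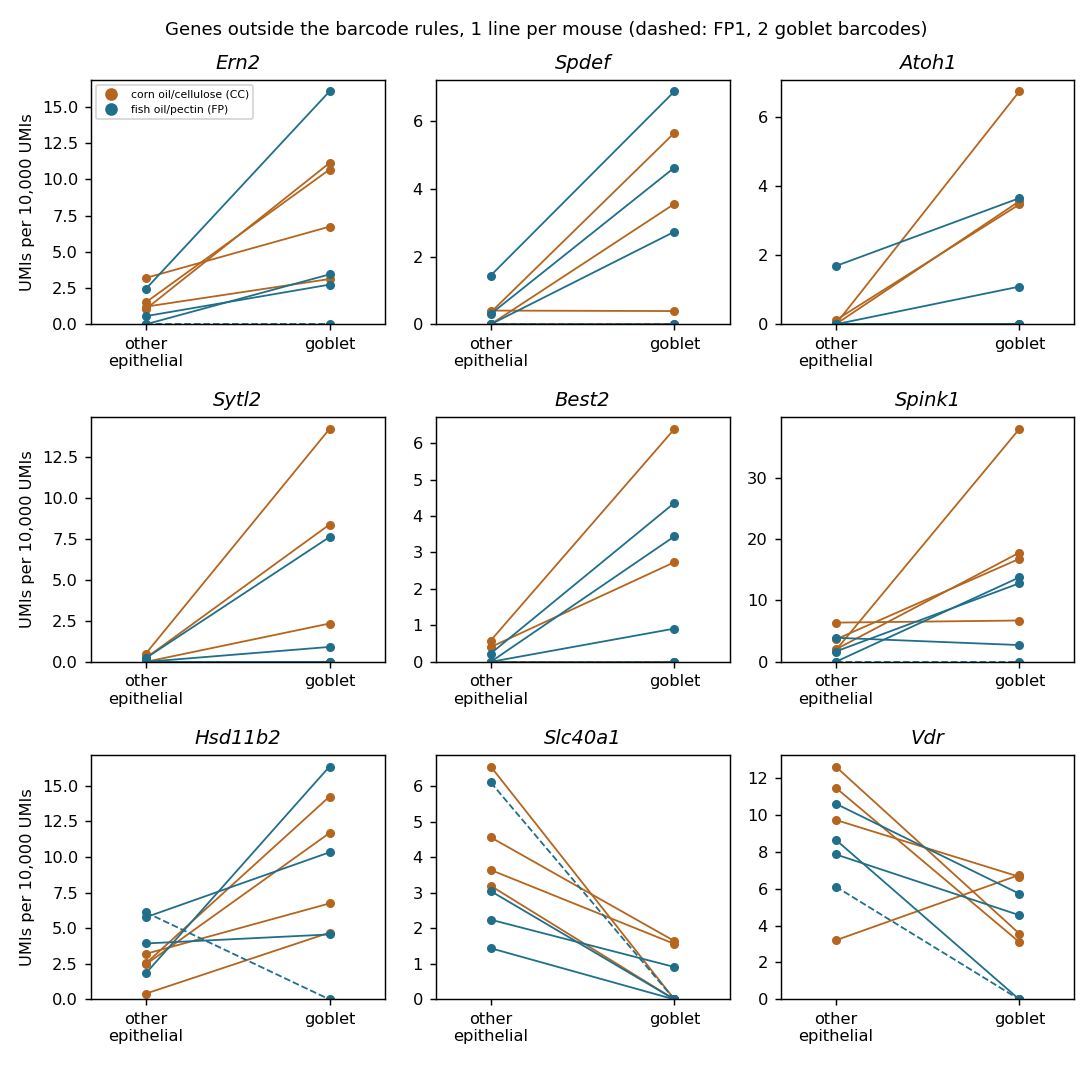
UMIs per 10000 (vertical axis, linear from 0) of 9 genes outside the barcode rules in other epithelial and in goblet barcodes, 1 line per mouse coloured by diet, FP1 dashed. Lines rise in all 7 tested mice for Ern2, on 1 goblet UMI each in CC1 and FP3, and fall in all 8 mice for Slc40a1.

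Markers of absorptive colonocytes were present in many goblet barcodes, by the same limits of 5 UMIs and 1.5%, in 75 of 211 (35.5%). The counts were 2, 0, 13 and 23 in CC1 to CC4 and 1, 16, 2 and 18 in FP1 to FP4. The most abundant were Saa1 with 651 UMIs, Lypd8 with 422 and Car4 with 215; of 23 markers, Ms4a18 and Slc51a were at 0. The summed list ran from 0.498% to 3.39% of goblet UMIs over CC1 to CC4 and from 1.24% to 2.56% over FP1 to FP4. Over all mice it made up 1.90% of goblet UMIs, 2.40% of other epithelial UMIs and 0.276% of other kept UMIs. Goblet barcodes thus carried nearly as large a share of it as the other epithelial barcodes, which were chosen partly on absorptive genes.

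Goblet barcodes with these markers had a median of 575 UMIs and the other 136 members one of 370.5, so the 2 sets differed in depth. Muc2, which helped to choose the members, stood at 148 UMIs per 10000 in them and at 346 in the others; the floor of 5 mucus UMIs asks a higher mucus share of shallow barcodes. Of genes outside the rule, Ern2 stood at 4.23 against 15.5, Spdef at 2.72 against 5.29 and Best2 at 1.66 against 7.01. Ern2 kept this direction within CC4, at 6.78 against 13.5, and within FP4, at 3.67 against 26.0. Atoh1, at 0.906 against 3.29 in all, did not keep it within FP4, at 1.22 against 0.982 on 2 UMIs each. Mxd1 ran the other way, at 33.8 against 27.0. Dmbt1, a secreted mucosal scavenger protein, stood at 37.0 against 8.30, a contrast also seen within CC4, at 63.1 against 6.46, while within FP4 it stood at 6.12 against 9.82. These are sums over barcodes of unequal mice, given with no test, and 2 cells in 1 droplet cannot be told apart from a cell with both programs.

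Other cell types left few traces in goblet barcodes. Fibroblast, endothelial, macrophage, lymphocyte, mast cell, glia, enteroendocrine, tuft and crypt base lists were present in none of the 211. Lgr5 and Olfm4 were at 0, as were Csf1r, Cdh5, Dclk1 and Cpa3. Smooth muscle, adipocyte and haemoglobin lists were present in 1 barcode each and the ileal list in 4, all in FP2.

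The goblet share of barcodes overlapped between the diets and passed no test. Of kept barcodes, they were 3.87%, 7.48%, 23.5% and 23.4% in CC1 to CC4 and 2.70%, 15.6%, 17.1% and 19.1% in FP1 to FP4. Exact (Clopper-Pearson) 95% intervals ran from 18.8% to 28.6% for CC4 and from 0.329% to 9.42% for FP1, and cover counting error only. The means were 14.6% ± 10.4 and 13.6% ± 7.41 (SD, n = 4 each), a difference of -0.938 percentage points (exact permutation test, two-sided, p = 0.971; smallest possible 0.0286). Within pools fish oil/pectin was lower by -8.90 points in pool 1, which has 1 such mouse, and by -6.17 in pool 2, which has 1 corn oil/cellulose mouse.

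Of epithelial barcodes, members plus other epithelial, goblet barcodes were 25.9%, 18.4%, 35.8% and 27.7% in CC1 to CC4 and 18.2%, 37.1%, 29.2% and 21.4% in FP1 to FP4. The diets overlapped fully, at 27.0% ± 7.17 and 26.5% ± 8.45 (SD, n = 4 each), with a difference of -0.519 points (exact permutation test, two-sided, p = 0.971). Its sign differed between pools, at -8.54 in pool 1 and 1.48 in pool 2. With each kept barcode thinned to 100 UMIs and members taken at 2 mucus UMIs or more, fish oil/pectin was higher by 6.69 points of kept barcodes (p = 0.4) and by 10.1 points of epithelial barcodes (p = 0.2, exact permutation tests). The share therefore gave no direction that held across depth. Median UMIs per goblet barcode were 192, 154.5, 978 and 553 in CC1 to CC4 and 254, 172.5 and 587 in FP2 to FP4 (exact permutation test, two-sided, p = 0.686).

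**Figure D4:**
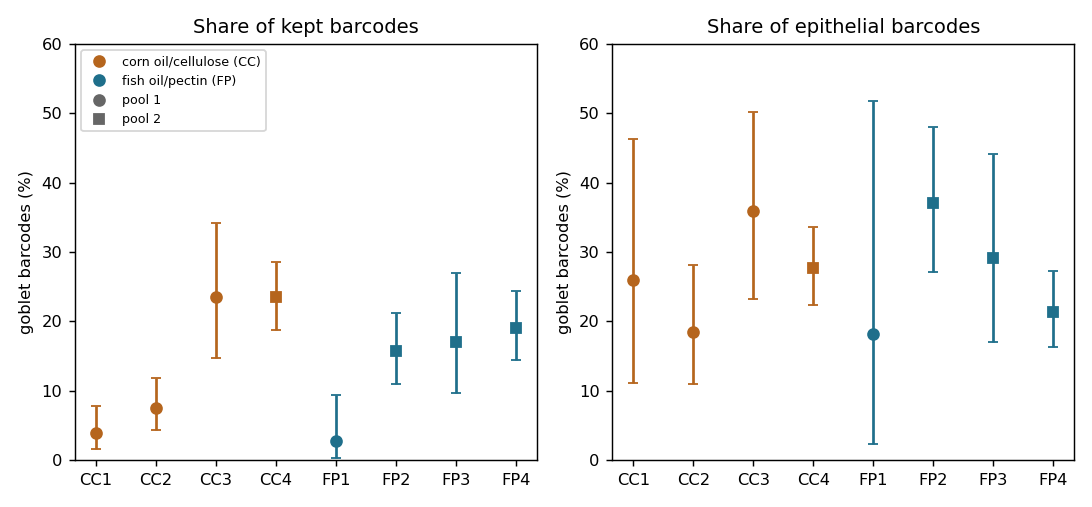
Goblet barcodes as a percentage of kept barcodes (left) and of epithelial barcodes (right) for each mouse, coloured by diet, with exact 95% intervals and the pool as the point's shape. Shares of kept barcodes are 7.48% or less in CC1, CC2 and FP1 of pool 1, whereas shares of epithelial barcodes overlap between diets and pools.

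No gene of the goblet barcodes passed the test between diets. With 4 corn oil/cellulose and 3 fish oil/pectin mice, edgeR called 0 of 291 genes (0%), with 10 at an unadjusted p under 0.05 and a median log2 difference of 0.06. DESeq2 and limma voom also called 0, with 6 and 21 genes at an unadjusted p under 0.05. In the rest of this comparison, values are of fish oil/pectin relative to corn oil/cellulose. In bulk sums of this kind, fewer transcribing cells and less RNA per cell cannot be told apart.

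Fabp6 and Car1 came nearest to the threshold. Fabp6, the ileal bile acid-binding protein, gave 1, 0, 0 and 0 UMIs in CC1 to CC4 and 1, 43, 6 and 1 in FP1 to FP4, a log2 difference of 6.89 ± 1.63 (adjusted p = 0.0940, edgeR). With 1 UMI in all corn oil/cellulose mice, the size of this fitted difference depends on the prior count. The 43 UMIs of FP2 lay in 11 barcodes. Car1, a carbonic anhydrase of colonocytes, stood at 27.0, 3.56, 3.12 and 2.37 UMIs per 10000 in CC1 to CC4 and at 47.1, 105, 34.4 and 3.00 in FP1 to FP4. FP1 to FP3 were above all corn oil/cellulose mice and FP4 was not, and 47 of the 115 Car1 UMIs of FP2 came from 1 barcode; the log2 difference was 3.85 ± 1.00 (adjusted p = 0.117, edgeR). In the other epithelial barcodes, which Car1 helped to choose, it stood at 15.99, 3.53, 6.88 and 4.68 in CC1 to CC4 and at 61.1, 130, 51.9 and 3.35 in FP1 to FP4, the same order of fish oil/pectin mice as in goblet barcodes. Within pool 2, CC4 against FP2 to FP4, the log2 differences were 8.66 for Fabp6 and 4.30 for Car1, and pool 1 gave no value because FP1 was left out.

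Reg3b, an antimicrobial lectin, was too scarce for the filter, with 0, 0, 0 and 1 UMIs in CC1 to CC4 and 2, 21, 4 and 0 in FP1 to FP4. Fabp6 and Reg3b belong to the ileal list and gave 52 and 28 of its 103 goblet UMIs, so that its sum largely restates them. The list's 11 measured genes summed to 0% to 0.0674% of goblet UMIs over CC1 to CC4. They summed to 0.353%, 0.666%, 0.344% and 0.00545% in FP1 to FP4, while Lyz1, Itln1, Defa21 and Mptx2 were at 0. No sum without Fabp6 and Reg3b was taken. The list's part in the differences of Fabp6, Reg3b and Car1 was not tested. Without FP2, no gene was called. Without FP4, Fabp6, Car1, Hbb-bs and Reg3b were called, and Fabp6, Car1 or both were called without CC1, CC2 or FP3.

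The rule genes chose the members, so their levels in members are bound by the rule and the values here only describe them. Among mucus genes tested in this fit, Zg16 had the smallest p, with a log2 difference of 1.35 ± 0.56 (adjusted p = 0.852, edgeR). The difference was smaller within pool 2, at 0.54, and with the pool as a covariate, at 0.89. Of the 8 rule genes tested, 6 were above and 2 below 0, with a median of 0.54, beside 160 of 291 genes above 0 in all. That direction did not hold within pool 2, where 4 of the 9 rule genes were above and 5 below 0, with a median of -0.18. There Muc2 turned from 0.15 to -1.23, Fcgbp from 0.60 to -0.80 and Tff3 from 0.95 to -0.18. Clec2d, a C-type lectin-like protein, differed by 1.90 and Ptms, a small acidic nuclear protein, by 1.77, neither near the threshold. In Clec2d, CC1 at 13.5 UMIs per 10000 was above all fish oil/pectin mice.

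Of the lower genes, Fhl1 and Rhob had the smallest p. Fhl1, a LIM-domain protein, stood at 13.5, 60.5, 18.4 and 51.5 UMIs per 10000 in CC1 to CC4 and at 23.5, 0.912, 17.2 and 10.6 in FP1 to FP4 (-1.88 ± 0.76, adjusted p = 0.852, edgeR). Rhob, a small GTPase induced by stress, stood at 6.74, 14.2, 12.5 and 5.29 and at 0, 1.82, 0 and 2.18 (-1.94 ± 0.82, adjusted p = 0.852, edgeR). The Rhob ranges did not overlap between diets, on 66 and 10 UMIs in all. Such separation was seen in 8 of the 291 genes tested (2.75%), each time with fish oil/pectin below, while the share of tested genes called was 0%. By chance alone, 4 against 4 mice separate fully, in either direction, at a rate of 0.0286. Adh1, an alcohol dehydrogenase, and Gde1, a phosphodiesterase, were 2 others. Adh1 ran from 5.29 to 7.81 over CC1 to CC4, on 1 and 2 UMIs in CC1 and CC2, and from 0 to 3.00 over FP1 to FP4. Gde1 was at 3.56 or more in CC1 to CC4 and at 3.44 or less in FP1 to FP4. That Gde1 gap is 1 UMI in CC2 against 1 UMI in FP3, in totals of 2809 and 2905 member UMIs. FP1, with 850 member UMIs, had 0 UMIs of Rhob, Adh1 and Gde1. The Fhl1 ranges overlapped in CC1, CC3, FP1 and FP3. Within pool 2 the differences were -2.86 for Fhl1 and -1.56 for Rhob. S100a6, Gde1, Adh1, Trpv3, Sprr2a3 and Dsp followed, between -1.65 and -1.34.

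**Figure D5:**
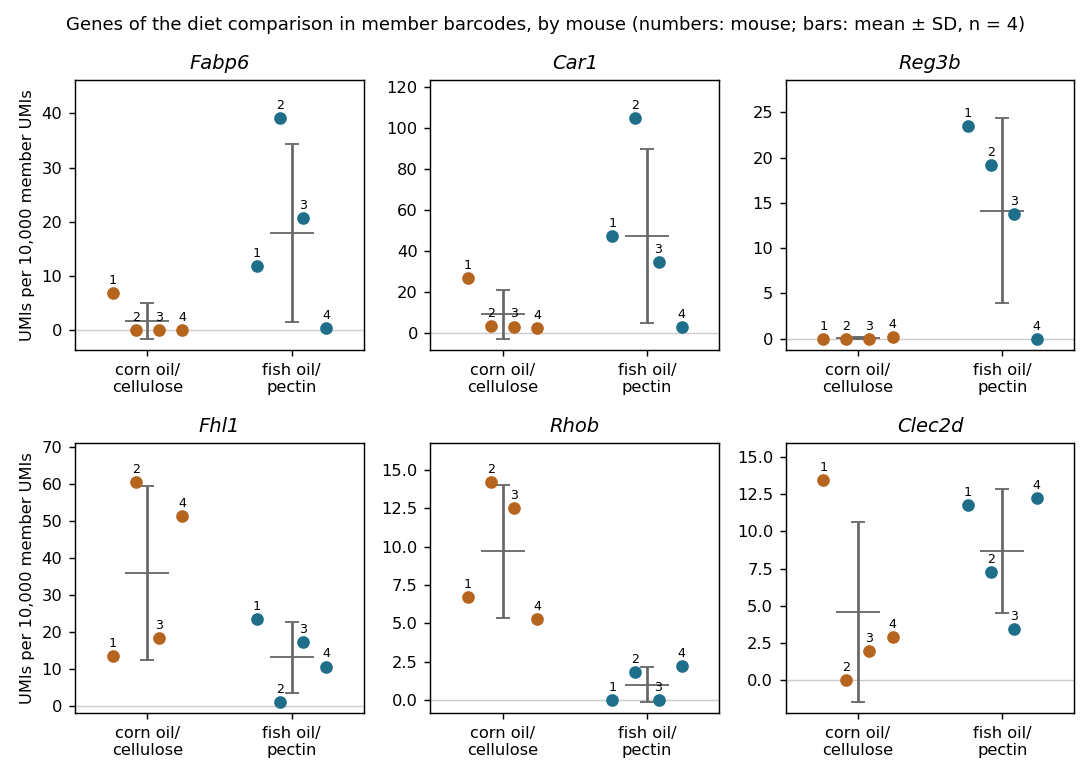
Selected genes of the diet comparison in goblet barcodes, in UMIs per 10000 member UMIs (vertical axis, linear), with 1 numbered point per mouse and the mean ± SD of 4 mice per diet. Fabp6, Car1 and Reg3b are high in fish oil/pectin mice 1 to 3 and near 0 in mouse 4, and Rhob is the 1 of these 6 panels in which the diets do not overlap.

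Lists of pathways were tested only in part at this depth. Of 23 measured ferroptosis suppressors, 3 were tested between diets, with a median of -0.34 and 0 called, and of 24 ferroptosis drivers 1 was tested. No gene of fatty acid synthesis or of fatty acid oxidation passed the filter; these lists summed to 132 and 308 goblet UMIs. The 5 immediate early and heat shock genes tested were all below 0, with a median of -0.23 and 0 called, beside a median of 0.06 over all tested genes.

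The difference of the diet effect between goblet and other epithelial barcodes was tested directly as an interaction. edgeR called 0 of 1509 genes (0%), with 20 at an unadjusted p under 0.05, and DESeq2 and limma voom called 0 as well, with 9 and 47. The 9 rule genes and 32 comparator genes stayed in this fit, though the barcode rules shape their levels. The rule gene Bcas1 had the smallest p (5.18 ± 1.47, adjusted p = 0.635, edgeR). Car1 gave an interaction of 0.33 ± 0.89 and Fabp6 one of 2.63 ± 1.79 on the log2 scale (adjusted p = 0.999 for both, edgeR). For Rhob the value was -1.22 ± 0.91. These intervals are wide against the differences themselves, so goblet barcodes were shown neither to follow the other epithelial barcodes nor to depart from them.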

How the data were processed

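Single-cell RNA was measured in 8 mouse colon libraries. The deposited matrices hold raw UMI counts for 19065 genes per barcode, made by the authors with Cell Ranger 8.0.0 per the file headers; the submitters' notes on processing name that tool too and give the builds mm10 and GRCm39; which one the counts rest on is not given in the sources used here. Gene coordinates were looked up by ID in GENCODE M21 (GRCm38). Counts were summed over member barcodes per mouse and tested across mice in R 4.3.3 with edgeR 4.0.16 (filterByExpr at a minimum count of 5, TMM, robust quasi-likelihood F test, Benjamini-Hochberg adjustment over all genes tested, threshold 0.05). Mice needed 5 barcodes in each class tested. DESeq2 1.42.0, limma 3.58.1 (voom), other filters and leaving out each mouse were alternatives. Shares were compared by two-sided exact permutation tests in scipy 1.17.1. No doublet caller was run, since many barcodes are shallow; members with markers of a non-epithelial type, or in droplets seen in another library, were left out as alternatives. The scripts were tested on simulated data. Pools were inferred from shared 16-base droplet barcodes with 8-base sample barcodes.

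No 2 libraries were copies: chi-square per degree of freedom within diets was at least 6.51. Members, gene lists and tests were chosen with earlier results of these data known. Genes named are the 9 rule genes, per fit up to 12 called genes per direction by fold change or, with fewer than 10 calls, the 8 of smallest p per direction, up to 4 per list, and a fixed set of goblet and diet-linked genes; the genes called without the count filter and outside that set were named after their values were seen. Fold changes are log2 with their SE. Depth limits which genes could be tested: 291 between diets and 553 between barcode classes. Intervals cover counting error only.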

Additional observations from a re-analysis of the deposited data

Results flagged for a closer look

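Of 100 sets of 4 mice on 1 diet, 8 had 1 mouse far from the other 3. Most sets were values of named genes per 10000 goblet UMIs, and the rest were shares and the median depth. The cut flags about 1 in 20 sets of normally distributed values, which these sparse counts are not. With the other 3 mice at 0, as for Fabp6 and Reg3b, a single UMI is enough to be flagged. The count of 8 can therefore not be judged against that rate. Fer1l6, a ferlin-family gene and 1 of the 9 that chose the members, stood at 71.2 in CC2, where the next mouse had 14.4. In CC1, Fabp6 stood at 6.74, from 1 UMI, Car1 at 27.0 and Nupr1 at 20.2, from 3 UMIs. In CC3, Slc37a2, a sugar-phosphate transporter, stood at 29.7 and Sh3d21 at 5.47, where the next mice had 2.37 and 0.548. The drug pump gene Abcb1a stood at 3.65 in FP2, from 4 UMIs, and Reg3b at 0.183 in CC4, from 1 UMI with the other 3 mice at 0.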

How the results depend on the processing

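The count of genes called between diets, 0, stayed at 0 without the count filter, with DESeq2, with limma voom, with a marker share of at least 3%, with the pool as a covariate and within pool 2. It was 1 with RLE size factors, with all mice that had at least 1 barcode, with a minimum of 10 barcodes, with at least 10 marker UMIs, without members with non-epithelial markers and, as settings added after seeing the data, without barcodes of 2000 UMIs or more, and 2 with at least 200 UMIs per barcode, without shared droplets and with the rule genes left out. Leaving out 1 mouse gave 0 to 4. In these settings Fabp6 was called in 10 of 15 in which it was tested and Car1 in 8 of 23. RLE factors moved the median over all genes from 0.06 to -0.08. The replicate block gave 1 call, Fabp6; samples of the same number did not deviate together (r = -0.218, -0.207 and 0.194 over 291 genes), so the numbers do not pair the mice. The block gave 0 calls for the interaction, and exact permutation tests over pairs gave p = 0.875, 1 and 1 for the 2 shares and the median depth. The 22 genes called against other epithelial barcodes became 35 without the count filter, 10 with DESeq2, 12 with all mice that had at least 1 barcode, 13 with at least 10 marker UMIs and 6 without the mouse block, and ranged from 3 to 34 with 1 mouse left out (11 without CC2, 6 without CC4, 34 without FP2, 3 without FP4). Of them, 4 were called without the count filter; Spink1, Ern2, Hsd11b2 and Nupr1 were called in each of the 21, 14, 21 and 14 alternatives that tested them. The interaction gave 0 calls in every setting run. The diet difference in the goblet share of kept barcodes turned to 6.93 points with at least 200 UMIs per barcode, 0.657 with a marker share of 3% and 6.69 after thinning, and ran from -4.50 to 2.70 with 1 mouse left out. That of epithelial barcodes turned to 9.22 with at least 200 UMIs, 10.1 after thinning and 1.48 within pool 2, and ran from -4.06 to 2.44. The difference in median UMIs, -132, ran from -256 to 38.0 with 1 mouse left out and was -374 with at least 200 UMIs per barcode. The cause was not tested for any of these changes. Of the 38 values of genes ranked by the naming rule in the diet and class comparisons, 0 changed sign in a setting that tested them. These genes were ranked by p or fold change in the main fit, and the settings reuse the same data. That count was therefore largely fixed in advance and gives no support to the directions. Of 68 other named genes with a diet value, 23 changed sign within pool 2 and 23 with the pool as a covariate, none of them called. Goblet RNA is shallow, 850 to 54790 UMIs per mouse, so CC4 and FP4 carry most of it, and Spdef and Atoh1 rest on few UMIs and were compared with other epithelial barcodes only without the count filter.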
